A study of Homo sapiens with 18 samples.

Results

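Peptidylarginine deiminases (PADIs) convert arginine residues in proteins to citrulline, and the transcripts of 4 of these enzymes, PADI1, PADI2, PADI3 and PADI4, were followed across all 18 libraries of the series. They were found by gene symbol, as 4 of the 25296 rows of the count table. PADI4 was selected on its measured counts, because they rose strongly under cytarabine in every line, so its cytarabine values are a description and carry no test. PADI1, PADI2 and PADI3 were taken because they belong to the same family. The rule uses no value of theirs, although the family was proposed with results of these data in view.

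The enzymes need calcium, and citrullination removes the positive charge of arginine, which loosens contacts between proteins or between histones and DNA. PADI4 carries a nuclear localization signal and is best known from granulocytes, where it citrullinates histones as chromatin is released from the cell. DNMT3A is among its reported substrates. PADI1 and PADI3 are best known from the epidermis and the hair follicle, where filaggrin and trichohyalin are substrates, and PADI2 is the most widely expressed member.

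U2OS is an established human osteosarcoma line. The labels name 3 lines derived from it. EV is the control with the MigR1 vector alone, WT overexpresses unmutated DNMT3A, and MUT overexpresses a mutant form. DNMT3A is a DNA methyltransferase, and the mutation is called R882C in the series text and R882H in the sample labels. Each line was sampled as 3 biological replicates without cytarabine and 3 with it, at 10 µM and after 24 h. Cytarabine is a nucleoside drug that stalls DNA replication. The cells without drug are called untreated in the sample labels and a vehicle control in the series text. The labels do not say whether a line is 1 clone, and with 1 line per construct the construct and other differences between lines cannot be told apart.

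Library totals ran from 15391484 to 21850378 estimated counts. Levels are given as CPM, counts relative to the TMM-scaled library size. DNMT3A, the introduced gene, lay between 26.2 and 49.6 CPM in the EV libraries, between 129 and 182 CPM in the WT libraries and between 254 and 615 CPM in the MUT libraries. Untreated MUT replicate 3 had the lowest DNMT3A of its line, and the untreated MUT replicates were the least alike, with a correlation over genes (Pearson's r, log2 CPM) as low as 0.967. Osteoblast and mesenchymal markers were present, with a summed level of 1103 to 1527 CPM over 6 of the 8 listed genes. TWIST1 and SP7 were not analysed here.

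All 4 genes lie in 1 cluster on chromosome 1 (hg38) and are annotated as protein-coding. PADI2 (chromosome 1, 17066761 to 17119436) is on the minus strand, and PADI1 (17205126 to 17246006), PADI3 (17249098 to 17284234) and PADI4 (17308195 to 17364005) follow on the plus strand. PADI6, the fifth gene of the family, was not analysed here. In the GENCODE annotation the members overlap no other gene apart from the microRNA gene MIR3972 inside PADI3, on the same strand. The RefSeq promoter sequences of GRCh38.p14, 250 bases before to 50 after a gene's start, matched PADI1, PADI2 and PADI4. They are shown because PADI1 and PADI4 responded to cytarabine and PADI2 was close to silent, and because CpG, written in capitals, is the dinucleotide that DNMT3A methylates.
PADI4 (chr1:17307947-17308246, plus strand): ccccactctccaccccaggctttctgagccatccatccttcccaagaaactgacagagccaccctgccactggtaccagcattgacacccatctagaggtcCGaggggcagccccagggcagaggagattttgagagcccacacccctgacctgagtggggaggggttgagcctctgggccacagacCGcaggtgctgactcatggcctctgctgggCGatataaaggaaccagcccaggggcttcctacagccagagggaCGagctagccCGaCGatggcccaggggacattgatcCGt
PADI1 (chr1:17204878-17205177, plus strand): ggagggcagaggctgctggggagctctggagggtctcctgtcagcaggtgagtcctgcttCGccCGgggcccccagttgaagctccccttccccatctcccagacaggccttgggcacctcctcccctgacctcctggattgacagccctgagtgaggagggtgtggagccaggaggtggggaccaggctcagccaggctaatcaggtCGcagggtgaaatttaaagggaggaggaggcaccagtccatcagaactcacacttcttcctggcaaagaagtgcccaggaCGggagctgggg
PADI2 (chr1:17119402-17119701, minus strand): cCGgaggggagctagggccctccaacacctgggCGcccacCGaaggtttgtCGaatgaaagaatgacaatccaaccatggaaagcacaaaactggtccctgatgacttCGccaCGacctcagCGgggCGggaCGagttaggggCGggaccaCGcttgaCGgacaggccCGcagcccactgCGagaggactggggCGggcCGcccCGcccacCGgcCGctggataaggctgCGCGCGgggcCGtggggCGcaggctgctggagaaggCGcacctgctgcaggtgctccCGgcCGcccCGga
The PADI4 window holds 7 CpG and the PADI1 window 4, against 28 in the PADI2 window and a median of 14 over 35114 promoter windows of the same length. As many CpG as PADI4 or fewer occur in 39.3% of those windows, and the corresponding shares are 29.6% for PADI1 and 75.8% for PADI2. Short motifs were searched on both strands, of which 4 are given. TATAAA was found once in the PADI4 window, at position -30 from the start, and TGACTCA, the core motif of AP-1 factors, once at position -54. They occur in 11.5% and 4.95% of all windows. GGGCGG (45.0% of all windows) was found 6 times in PADI2 and in neither of the other windows, and CCAAT (34.6%) in none of the 3. These matches are descriptions of the letters in the windows. Methylation and factor binding were not measured.

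PADI4 was close to silent without drug and was at its highest with cytarabine in the MUT line. In untreated EV its level was 0.467, 0.467 and 0.369 CPM in replicates 1, 2 and 3, which rests on 8, 8 and 6 counts. With cytarabine the EV replicates had 13.0, 12.2 and 11.5 CPM. In WT it was 0.588, 0.265 and 0.275 CPM untreated and 9.46, 7.46 and 8.27 CPM treated. All treated libraries of these lines lay far above all untreated ones. In MUT the level was 0.802, 0.881 and 0.571 CPM untreated and 20.0, 17.7 and 17.6 CPM treated. The treated MUT libraries lay above every other library of the series. The log2 fold changes were 4.79 (SE 0.214) in EV, 4.44 (SE 0.217) in WT and 4.61 (SE 0.192) in MUT. They ranked 34th, 44th and 50th from the top of 18226 tested genes. These are the values that chose the gene, and the untreated counts of 5 to 16 per library set their precision. Without untreated WT replicate 1, the highest of that group, the WT value was 4.93. RNA from whole cultures was measured, so a rise in a few cells and a smaller rise in many cannot be told apart.

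PADI3, the hair follicle enzyme and the next gene upstream of PADI4, rose with cytarabine in every line. Its level was 0.643, 0.234 and 0.430 CPM in untreated EV and 6.55, 6.93 and 6.54 CPM in treated EV. In WT it was 0.343, 0.423 and 0.550 CPM untreated and 5.75, 4.81 and 7.01 CPM treated. In MUT it was 0.351, 0.377 and 0.343 CPM untreated and 6.28, 4.12 and 5.36 CPM treated. Every treated library exceeded every untreated one, and the treated lines overlapped each other in part. The log2 fold changes were 3.92 (SE 0.276) in EV, 3.73 (SE 0.271) in WT and 3.86 (SE 0.284) in MUT, with adjusted p of 1.9e-09, 2.4e-09 and 1.8e-09 in the edgeR quasi-likelihood test. They ranked 67th, 82nd and 86th of the tested genes. Untreated libraries held only 4 to 11 PADI3 counts each, so the gene passed the low-count filter mainly through its treated libraries. With no low-count filter the call held in every line.

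PADI1, the epidermal enzyme, also rose in every line, by a smaller fold. Its level was 0.409, 0.876 and 0.922 CPM in untreated EV and 3.86, 2.50 and 2.27 CPM in treated EV. In WT it was 1.13, 1.59 and 1.37 CPM untreated and 3.53, 3.35 and 3.67 CPM treated. In MUT it was 0.501, 0.314 and 0.800 CPM untreated and 2.86, 1.82 and 2.05 CPM treated. Treated and untreated libraries did not overlap within any line, and treated EV spread the most. The log2 fold changes were 1.96 (SE 0.331) in EV, 1.37 (SE 0.300) in WT and 2.04 (SE 0.346) in MUT, with adjusted p of 6.7e-05, 8.6e-04 and 5.4e-05 in the edgeR quasi-likelihood test.

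PADI1 and PADI3 thus both rose in each line, where 26.1% of all tested genes rose in EV, 26.3% in WT and 30.4% in MUT. All treated libraries lay above all untreated ones for 30.6%, 33.5% and 32.1% of tested genes. A rise in all 3 lines was found for 18.9% of tested genes. A rise by a log2 fold change of at least 2 in every line was found for 272 genes, 1.49% of those tested. PADI3 is among them with PADI4, which was chosen for its rise, and PADI1 is not.

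PADI2 stood apart from its neighbours, with 10 counts in all over 18 libraries and none in 10 of them. No library held more than 2 counts. All libraries of untreated EV and untreated WT had 0 counts, which allows a level of up to 0.184 CPM and 0.165 CPM in the library that limits it least, counting error only. Every group was at or under this floor of 3 counts per library, so no fold change is given, and PADI2 did not pass the low-count filter that the other members passed.

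**Figure D1:**
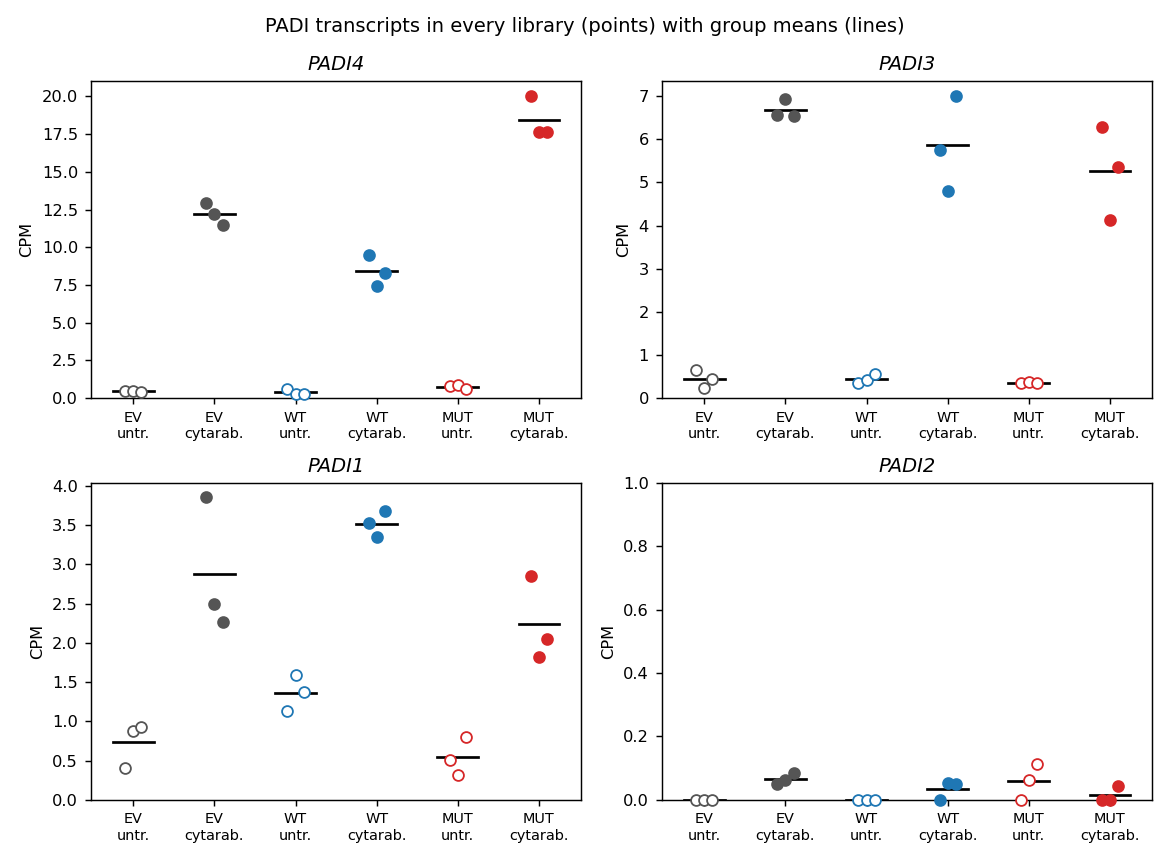
Level of each member in CPM (vertical axes, which differ between panels) in every library, by line and treatment. Points are replicates, open without and filled with cytarabine, and lines are group means (n = 3). PADI4, PADI3 and PADI1 are higher in all treated libraries of a line than in its untreated ones, and PADI2 does not exceed 0.114 CPM.

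**Figure D2:**
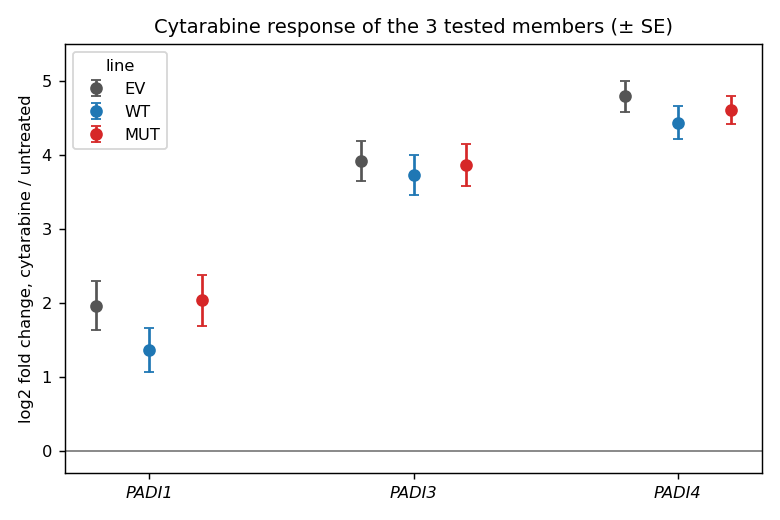
Log2 fold change of cytarabine over untreated cells (vertical axis) for PADI1, PADI3 and PADI4 in the 3 lines, from the fit across all genes. Points are estimates and bars are ± SE. The values lie between 1.37 and 2.04 for PADI1, between 3.73 and 3.92 for PADI3 and between 4.44 and 4.79 for PADI4.

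Levels of different members can be compared per length, for which CPM was divided by the summed exon length of each gene in kb. Without drug the 3 detected members were alike in EV, at 0.150 ± 0.0579 (SD, n = 3) for PADI1, 0.137 ± 0.0641 for PADI3 and 0.146 ± 0.0191 CPM per kb for PADI4, differences within the replicate spread. In untreated WT PADI1 was the highest, at 0.278 ± 0.0469 against 0.138 ± 0.0327 for PADI3 and 0.127 ± 0.0620 CPM per kb for PADI4, with no overlap. In untreated MUT PADI4 was the highest, at 0.253 ± 0.0542 against 0.110 ± 0.0499 for PADI1 and 0.112 ± 0.00568 CPM per kb for PADI3, again with no overlap. With cytarabine the order was PADI4, PADI3 and PADI1 in every library. Treated MUT had 6.21 ± 0.462 CPM per kb of PADI4, 1.65 ± 0.341 of PADI3 and 0.457 ± 0.111 of PADI1.

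The question in the series title is whether the response differs between the lines. Of PADI1 and PADI3, neither differed between lines in its cytarabine effect by the edgeR interaction tests, where 0.214% of genes were called (MUT and EV), 1% (MUT and WT) and 0.285% (WT and EV). For PADI3 the differences in log2 fold change were -0.057 between MUT and EV (95% interval -1.11 to 0.99), 0.13 between MUT and WT (-0.79 to 1.05) and -0.19 between WT and EV (-1.12 to 0.74). For PADI1 they were, in that order, 0.076 (-0.95 to 1.10), 0.67 (-0.33 to 1.67) and -0.60 (-1.57 to 0.38). Each interval reaches past 1 log2 unit on 1 side, so differences of that size would not have been detectable at this depth. The raw p-values ran from 0.161 to 0.931 and the adjusted p from 0.518 to 0.976 (edgeR quasi-likelihood). For PADI4, whose responses chose it, the 3 differences were -0.18 (SE 0.324), 0.17 (SE 0.366) and -0.35 (SE 0.377) in the same order, with no test. Without untreated WT replicate 1 the last was 0.14 and the second -0.32, so their signs rested on that library. Without untreated MUT replicate 3 the second was -0.017 and the first -0.37.

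The level of PADI4 did differ between lines under cytarabine, in the order MUT, EV, WT. The comparison of lines within a treatment was not used in the choice of the gene, and the 3 comparisons share libraries with each other. On the log2 scale treated MUT exceeded treated WT by 1.13 (SE 0.142, adjusted p 1.5e-05, edgeR quasi-likelihood) and treated EV by 0.59 (SE 0.139, adjusted p 0.0074, edgeR quasi-likelihood). Treated WT was below treated EV, at -0.54 on the same scale (SE 0.144, adjusted p 0.0140, edgeR quasi-likelihood). None of these groups overlap, which held for 45.5%, 33.6% and 37.1% of tested genes. Of all tested genes 19.8%, 14% and 16.5% were called in these comparisons, so a call as such is not rare. The WT against EV call was lost without treated WT replicate 2 (-0.46, adjusted p 0.0833, edgeR) or treated WT replicate 3 (-0.53, adjusted p 0.0523, edgeR), and over all alternatives its adjusted p ran from 0.00575 to 0.0833. DNMT3A itself had 45.5 to 49.6 CPM in treated EV, 166 to 182 CPM in treated WT and 515 to 532 CPM in treated MUT, and its part in the PADI4 levels was not tested.

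Without drug, PADI4 in MUT exceeded WT by 0.96 (SE 0.302, adjusted p 0.0464, edgeR quasi-likelihood), a comparison in which 21.2% of genes were called. The call was lost without untreated MUT replicate 1 (0.90), MUT replicate 2 (0.88), WT replicate 2 (0.80) or WT replicate 3 (0.79), with adjusted p from 0.102 to 0.175 in edgeR, and MUT replicate 3 at 0.571 CPM lay below WT replicate 1 at 0.588 CPM. The difference of 0.78 (SE 0.303) between untreated MUT and EV did not pass the threshold (raw p 0.0368, adjusted p 0.121, edgeR quasi-likelihood), although the groups did not overlap. Groups that did not overlap were found for 30.4% of tested genes in that comparison and 19.9% were called. For untreated WT against EV the difference was -0.19 (SE 0.340, adjusted p 0.843, edgeR quasi-likelihood).

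PADI1 had another order of lines than PADI4, with WT the highest. Untreated, MUT was below WT, at -1.32 on the log2 scale (SE 0.362, adjusted p 0.0136, edgeR quasi-likelihood), and the groups did not overlap, as for 31.9% of tested genes. Without untreated MUT replicate 2 (-1.03, adjusted p 0.0585, edgeR) or untreated WT replicate 2 (-1.16, adjusted p 0.0635, edgeR) this call was lost. Untreated WT against EV gave 0.88 (SE 0.350, adjusted p 0.118, edgeR quasi-likelihood) with no overlap, where 40.3% of genes had none and 11.7% were called. With cytarabine PADI1 in MUT against WT gave -0.65 (SE 0.284, adjusted p 0.119, edgeR quasi-likelihood), and the remaining PADI1 comparisons of lines had adjusted p of at least 0.471. PADI3 passed the threshold between no pair of lines, with adjusted p from 0.303 to 0.999 over the 6 comparisons (edgeR quasi-likelihood). Its largest difference, treated MUT against EV, was -0.34 (95% interval -0.79 to 0.10), and these groups did not overlap, as for 33.6% of tested genes.

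The ratio of 2 members within a library does not depend on how the libraries are scaled. These ratios were formed after the levels had been seen and are given as a description, with no test. With cytarabine the ratio of PADI4 to PADI3 per kb was 3.42 to 4.61 in the MUT libraries, 1.89 to 2.12 in EV and 1.27 to 1.77 in WT. The ratio of PADI4 to PADI1 was 11.6 to 16.0 in MUT, 5.54 to 8.38 in EV and 3.67 to 4.43 in WT. Neither ratio overlapped between any pair of treated lines, and both hold PADI4, whose level differed between these lines. Levels of single genes did not overlap for 33.6% (MUT and EV), 37.1% (WT and EV) and 45.5% (MUT and WT) of tested genes. The share for ratios of other genes was not counted. The ratio of PADI3 to PADI1 with cytarabine was 2.61 to 4.44 in EV, 2.21 to 2.93 in WT and 3.38 to 4.02 in MUT, so EV overlapped with both other lines. Without drug the ratio of PADI4 to PADI3 was 0.781 to 2.15 in EV, 0.537 to 1.84 in WT and 1.79 to 2.50 in MUT. It overlapped between all pairs and rests on 4 to 16 counts per gene and library. The ratio of PADI4 to PADI1 without drug was 0.660 to 1.89 in EV, 0.275 to 0.861 in WT and 1.18 to 4.62 in MUT. In this ratio untreated MUT and WT did not overlap and EV overlapped with both, on 5 to 30 counts per gene and library.

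**Figure D3:**
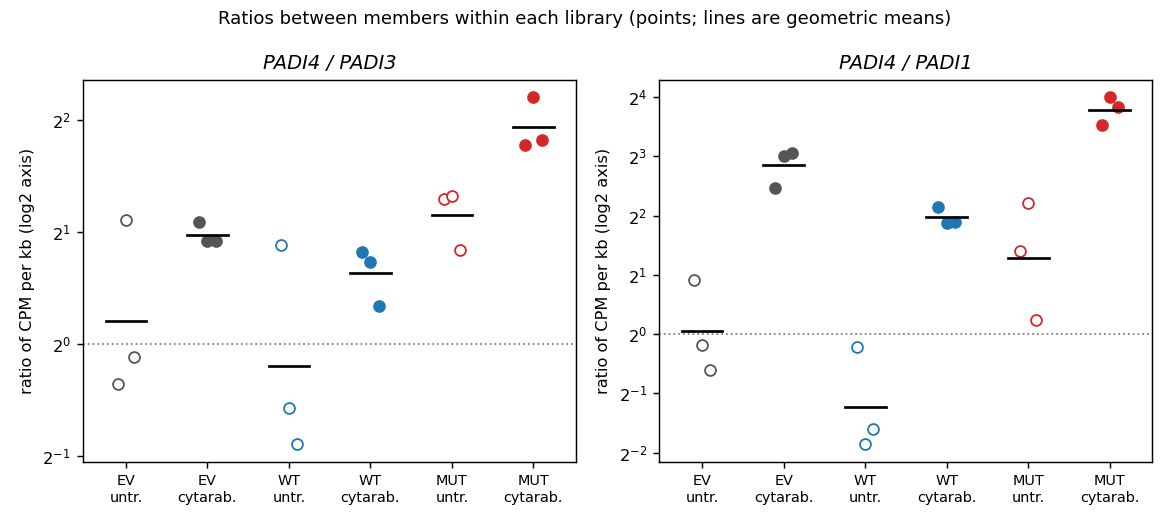
Ratio of PADI4 to PADI3 (left) and of PADI4 to PADI1 (right), both as CPM per kb on a log2 axis, in every library by line and treatment. Points are replicates, open without and filled with cytarabine, and lines are geometric means. With cytarabine the MUT libraries lie above the EV libraries and these above the WT libraries in both panels.

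No tested gene around the cluster had an estimate as large as those of PADI3 and PADI4, while some were as large as that of PADI1. Within 500 kb of the span from PADI2 to PADI4 the table holds 18 other genes, of which 13 were tested, and 6, 4 and 5 rose and 3, 3 and 3 fell in EV, WT and MUT, beside all-gene shares of 26.1%, 26.3% and 30.4% rising and 22.9%, 22.7% and 25.9% falling. Their median log2 fold changes were 0.45, 0.13 and 0.27, against 0.051, 0.026 and 0.054 over all tested genes. RCC2, the nearest tested gene downstream of PADI4 and a regulator of chromosome condensation, changed by -0.61, -0.65 and -0.39, and SDHB, a subunit of succinate dehydrogenase next to PADI2, by -0.36, -0.41 and -0.75. ATP13A2, a lysosomal transporter, rose by 0.45, 0.36 and 0.30 and ARHGEF10L, a guanine nucleotide exchange factor, by 0.67, 0.66 and 0.59. NBPF1 rose by 0.37, 0.48 and 0.59, and the processed pseudogene EIF1AXP1, whose reads may belong to its parent gene, changed by -0.68, -0.85 and -1.02. All these changes passed the threshold in every line (edgeR quasi-likelihood). CROCC, a protein of the ciliary rootlet, had 0.48, 0.098 and 0.27 and passed in EV and MUT, and its pseudogene CROCCP2 had 0.066, -0.057 and 0.097 and MFAP2, a microfibril protein, 0.070, 0.016 and 0.092, with no call. The next 4 genes had at most 0.714 CPM on average in any group. The lincRNA BX284668.2 had 2.19, 2.71 and 1.49 and passed in EV alone, the pseudogene MST1P2 had 2.00, 0.61 and 1.90 and passed in EV and MUT, and the pseudogene ESPNP had 1.11, 0.13 and -0.24 with no call. The lincRNA AL590644.1, between PADI2 and PADI1, had 0.85, 1.60 and 1.61 and passed in WT alone. No test of the differences between lines is implied for these. ACTL8, AL021920.2, BX284668.6, CROCCP4 and MST1L did not pass the low-count filter.

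**Figure D4:**
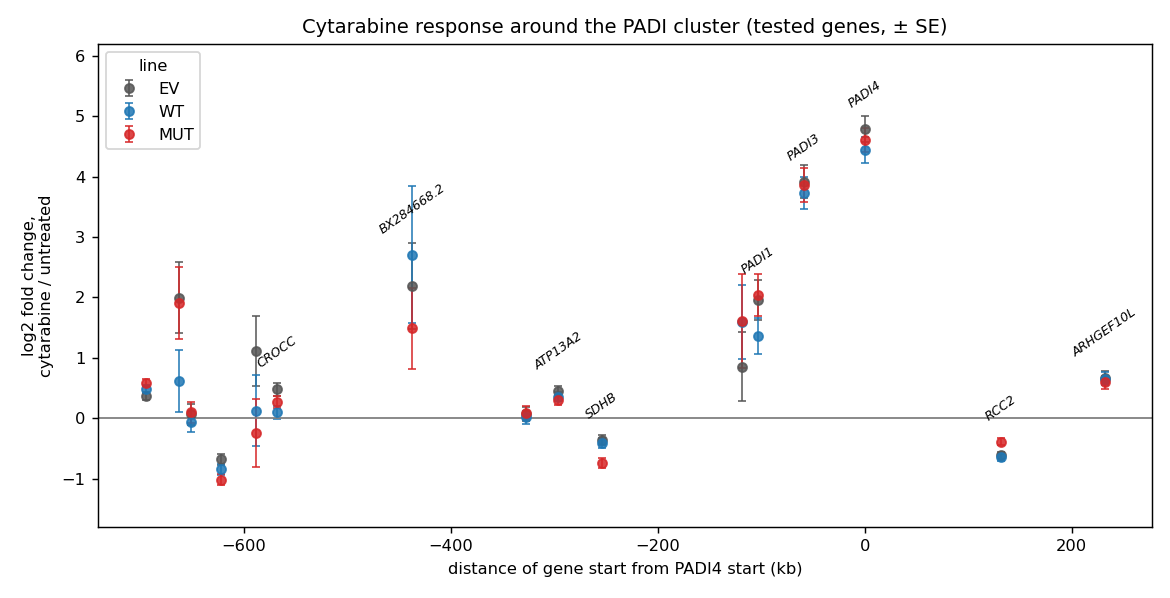
Log2 fold change of cytarabine over untreated cells (vertical axis, ± SE) for the tested genes of the cluster and its surroundings, against the distance of each gene's start from that of PADI4 in kb. Colours are the lines, and some points carry no name for space. The estimates for PADI3 and PADI4 lie between 3.73 and 4.79, above those of all neighbours, and RCC2 and SDHB lie below 0.

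The genes whose pattern was most like that of PADI4 were sought by the root mean square distance of log2 CPM over the 18 libraries, each gene centred on its own mean. PADI3 was the 4th nearest of 18225 genes, at a distance of 0.743 (Pearson's r 0.956), and PADI1 came at place 1011, at 1.63 (r 0.753), against a median distance of 2.25. The nearest was ALG1L at 0.629 (r 0.979), followed by LAPTM5, a lysosomal membrane protein of blood cells, at 0.725 and the unclassified transcript AC084759.3 at 0.742. After PADI3 came GDF15, a stress-induced cytokine, TJP3, a tight junction protein, MYCT1, PPP1R16B, EBI3, a cytokine subunit, and FGF21, a stress-induced hormone, at 0.745 to 0.806. Their r lay between 0.940 and 0.969. All 18 libraries enter these values, and these libraries share the step between treated and untreated cells. With a smaller prior count, 8 of the 10 genes remained among the nearest 10.

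**Figure D5:**
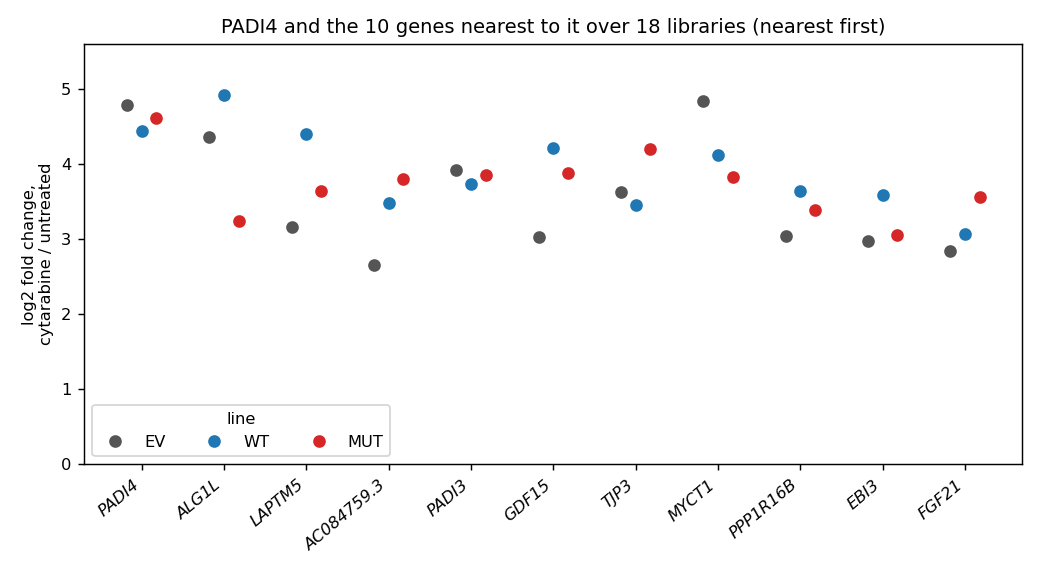
Log2 fold change of cytarabine over untreated cells (vertical axis) in each line for PADI4 and the 10 genes nearest to it over the 18 libraries, nearest first. Colours are the lines. PADI4 lies at 4.44 to 4.79, and PADI3 is the member of the family among the 10.

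Proteins reported as substrates or partners of PADI enzymes mostly fell at the transcript level. Of 20 genes, those that fell numbered 14 in EV, 13 in WT and 12 in MUT, and those that rose 1, 0 and 0. Of all tested genes 22.9%, 22.7% and 25.9% fell and 26.1%, 26.3% and 30.4% rose. In all 3 lines 12 fell, where 16.4% of all tested genes did. Their medians were -0.42, -0.43 and -0.38. The linker histone gene HIST1H1C changed by -0.91, -1.65 and -1.71, with close paralogs that can share its reads, NPM1, the nucleolar protein nucleophosmin, by -1.23, -1.22 and -1.46, and EWSR1, an RNA-binding protein, by -0.97, -1.14 and -1.05. LMNB1, the nuclear lamin B1, changed by -0.97, -0.91 and -0.79 and the deacetylase gene HDAC2 by -0.39, -0.43 and -0.56. HDAC1 gave 0.044, 0.051 and 0.097 with no call. EP300, a histone acetyltransferase, fell in EV (-0.45) and gave -0.43 in WT and -0.11 in MUT with no call. Its untreated MUT libraries spread from 50.4 to 118 CPM, against 84.3 to 87.5 CPM in treated MUT, so the MUT value is uncertain. DNMT3A was the gene that rose in EV, by 0.82, and gave 0.40 in WT and 0.20 in MUT with no call (adjusted p 0.0724 and 0.353, edgeR). In WT and MUT its value includes the introduced transcript. Untreated MUT replicates 1, 2 and 3 had 500, 615 and 254 CPM of DNMT3A, against 515 to 532 CPM in treated MUT. The MUT change thus leans on the low replicate 3.

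Of 17 genes of the cornified epidermis, the setting of PADI1 and PADI3, 12 were tested, of which 5, 4 and 5 rose and 2, 2 and 2 fell in EV, WT and MUT. Over all tested genes 26.1%, 26.3% and 30.4% rose and 22.9%, 22.7% and 25.9% fell. The medians of the list were 0.84, 0.17 and 0.72, against 0.051, 0.026 and 0.054 over all tested genes. FLG, filaggrin, had 53.6 to 59.7 CPM in untreated EV and 174 to 224 CPM in treated EV. It had 68.0 to 69.7 and 296 to 346 CPM in WT, and 13.7 to 59.8 and 196 to 221 CPM in MUT. Untreated MUT replicate 3 had the lowest level, treated libraries were above untreated ones in each line, and the log2 fold changes were 1.79, 2.21 and 2.37. FLG overlaps the antisense gene FLG-AS1, and the handling of strand in the counts is not given, so reads of the 2 genes may be mixed. FLG2 rose by 1.54, 1.98 and 2.74 and IVL, involucrin, by 1.79, 1.79 and 1.63, both from at most 1.84 CPM on average without drug, while KRT10 and BLMH fell in every line. TCHH, trichohyalin, gave -0.044, -0.12 and 0.56 with no call. The summed level of the 16 genes analysed was 244 to 299 CPM without and 314 to 503 CPM with cytarabine. Most of this sum came from BLMH, KRT10 and FLG, and of these only FLG rose. Without drug BLMH had group means of 118 to 152 CPM and KRT10 of 60.2 to 81.7 CPM. KRT1 and LOR, both defining markers, had means of at most 1.97 CPM in any group. The part of these genes in the PADI1 and PADI3 values was not tested.

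Granulocytes are the cells in which PADI4 is best known, and the defining markers analysed were at or near 0. Of 28 listed genes 18 were analysed, and ELANE, CTSG, AZU1 and DEFA4 were not analysed here. MPO, PRTN3, S100A8 and SPI1 had means of at most 0.196 CPM in any group. The summed level was 52.6 to 55.8 CPM in untreated and 65.2 to 80.0 CPM in treated EV, 49.7 to 53.7 and 59.8 to 61.6 CPM in WT, and 62.3 to 76.1 and 83.0 to 87.2 CPM in MUT. MMP9, a secreted protease, had group means of 7.65 to 27.4 CPM. Of the 11 tested genes 5, 5 and 6 rose and 2, 1 and 1 fell, where 26.1%, 26.3% and 30.4% of all tested genes rose and 22.9%, 22.7% and 25.9% fell. Their medians were 0.60, 0.15 and 1.02. CXCR2, a chemokine receptor, rose by 1.87, 3.68 and 4.61 (with overlapping groups in EV). Its means were 0.120, 0.0877 and 0.0167 CPM without and 0.469, 1.20 and 0.608 CPM with cytarabine in EV, WT and MUT. Every untreated library lay at or under the floor of 3 counts, so the size of these rises is uncertain. LTF, lactotransferrin, rose by 2.01, 1.69 and 1.71 and GFI1, a transcriptional repressor, by 1.04, 0.92 and 1.18. MMP9 changed by -1.16, -0.89 and -0.77. PTPRC, the pan-leukocyte marker CD45, gave -0.0012, -0.062 and 1.02 with no call. The part of these genes in the PADI4 values was not tested.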

How the data were processed

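RNA of 18 libraries was sequenced in 6 groups of 3. The authors deposited estimated counts per gene symbol, of which 70.4% were whole, and a table of normalized signal, which per its values equals 1 plus a factor per library times the estimated count (largest relative deviation 7.29e-06). CASAVA, STAR 2.6.1d and hg38 are named in the submitters' processing notes. The counting tool, strand handling and treatment of reads with several matches are not given in the sources used here.

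Estimated counts were rounded. In edgeR 4.0.16 (R 4.3.3), filterByExpr left 18226 genes, libraries were scaled by TMM, and 1 quasi-likelihood fit held a coefficient for each of the 6 groups. Benjamini-Hochberg adjustment ran over the 18226 genes, and a call is an adjusted p under 0.05. SE is the log2 fold change over the square root of F, and intervals are from a t distribution with the residual degrees of freedom. The p-values come from the quasi-likelihood test itself. SE and intervals are therefore approximate beside them and can be too narrow for genes with few counts, such as the members. The fit was also run on simulated data in which few genes changed, and these in treated EV alone. That setting does not check the fit where many genes change, as they did with cytarabine. Log2 CPM used a prior count of 2. Exon lengths come from GENCODE. The promoter motifs were chosen after the sequences had been seen. Named genes are the members, PADI6, genes within 500 kb, the 10 genes nearest to PADI4, up to 3 in each direction per list among those called in all 3 lines, and a few fixed names. Members and lists were chosen with earlier results of these data known, so their counts are descriptions, and lists were written from general knowledge. Replicate numbers pair no samples by the labels, and p-values measure the spread between these cultures. Alternatives were DESeq2 1.42.0, other scalings and filters, a replicate block, fits of only the groups compared and leaving out each library. Some genes, and results that need them, are not reported here.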

Additional observations from a re-analysis of the deposited data

How the results depend on the processing

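The rises of PADI1 and PADI3 in every line, and treated PADI4 in MUT above WT and above EV, kept direction and call in all alternatives run. PADI1 could not be given at a mean of at least 50 counts. Over fits leaving out 1 library each, values ran from 4.24 to 4.93 for the PADI4 effect in WT, from 0.79 to 1.45 for untreated PADI4 in MUT against WT, from -0.63 to -0.46 for treated PADI4 in WT against EV and from -1.67 to -1.03 for untreated PADI1 in MUT against WT. They changed sign for differences that had no call. These were the differences of effects for MUT against EV (PADI1 -0.21 to 0.42, PADI3 -0.45 to 0.25), for MUT against WT (PADI3 -0.057 to 0.28, PADI4 -0.32 to 0.35) and for WT against EV (PADI3 -0.58 to 0.12, PADI4 -0.56 to 0.14), and untreated PADI3 in MUT against EV (-0.59 to 0.11) and WT against EV (-0.30 to 0.40) and untreated PADI4 in WT against EV (-0.68 to 0.0051). The PADI4 difference of effects for MUT against EV ran from -0.37 to -0.080. Untreated PADI3 in WT against EV, 0.0011, became -0.0092 in DESeq2, -0.0082 with RLE factors and -0.018 with the authors' factors. Untreated PADI4 in MUT against WT lost its call with no low-count filter (0.96, adjusted p 0.0621, edgeR) and with only the groups compared (0.96, adjusted p 0.238, edgeR), over a range of 0.0175 to 0.238. With only the groups compared, PADI1 in MUT against WT lost its call untreated (-1.33, adjusted p 0.0804, edgeR) and gained one treated (-0.65, adjusted p 0.0309, edgeR). The causes were not tested.

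The replicate numbers were checked as pairs. The correlation of deviations between same-numbered untreated and treated libraries ran from -0.036 to 0.326, and 2 of 9 pairs exceeded 0.1. With the replicate block none of the 36 values of PADI1, PADI3 and PADI4 changed its call, and the number of genes with a difference of effects for MUT against EV was 25 against 39.

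Counts of called genes moved by more than 1.5 times as follows. For differences of effects, MUT against EV (39) gave 554 in DESeq2, 128 at a mean of at least 50 counts, 1 with only the groups compared and 8 to 666 without 1 library. MUT against WT (183) gave 803 in DESeq2, 278 with RLE factors, 375 at a mean of at least 50 counts, 51 with only the groups compared and 38 to 810 without 1 library. WT against EV (52) gave 138 in DESeq2, 32 with the authors' factors, 34 with no low-count filter, 278 with only the groups compared and 12 to 53 without 1 library. With only the groups compared, untreated MUT against EV gave 935 (3632 in all groups), WT against EV 5101 (2125) and MUT against WT 1171 (3872), and treated MUT against WT 6113 (3616). Without 1 library, untreated MUT against EV gave 2253 to 4386 and WT against EV 1385 to 1432, and treated MUT against EV 1539 to 2051 (2548), WT against EV 1776 to 2477 (3013) and MUT against WT 2313 to 2866. Untreated levels of the members rest on 4 to 30 counts per library, which limits every fold change given for them.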

Other observations

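Enzymes that modify arginine in other ways were also followed. Of 9 arginine methyltransferase genes, whose products act on the same residue as the PADI enzymes, 8 were tested, and 6, 6 and 7 fell with cytarabine in EV, WT and MUT and 0 rose (edgeR quasi-likelihood), where 22.9%, 22.7% and 25.9% of all tested genes fell and 26.1%, 26.3% and 30.4% rose. Their median log2 fold changes were -0.50, -0.44 and -0.46, against 0.051, 0.026 and 0.054 over all tested genes. PRMT1, the main asymmetric methyltransferase, changed by -0.88, -0.79 and -1.21, PRMT3 by -0.80, -0.93 and -0.73 and PRMT5, the main symmetric one, by -0.71, -0.71 and -1.001.

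Of 10 genes for enzymes that make or use free arginine and citrulline, 8 were tested, and 6, 5 and 6 rose and 1, 0 and 1 fell, beside the same shares of all tested genes. Their medians were 0.63, 0.52 and 0.60. NOS1, the neuronal nitric oxide synthase, rose by 2.16, 1.93 and 2.53, from group means of 3.49 to 4.70 CPM to 16.8 to 20.3 CPM. NOS2, the inducible synthase, rose by 0.76, 1.20 and 0.99 and ASS1, argininosuccinate synthase, by 0.89, 0.44 and 0.74.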
